A study of Homo sapiens with 8 samples.

Results

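The genes of the azurophil granule were followed by RNA sequencing across 4 human cell lines. They are 9 genes, taken by symbol from a table of 23615 gene symbols: CTSG, ELANE, PRTN3, AZU1, MPO, SRGN, RNASE2, RNASE3 and LYZ. All 9 were listed, and all 9 were among the 16295 genes tested, which reached 0.5 FPKM (fragments scaled to transcript length and to the mapped fragments of the library) in at least 2 of 8 libraries. MPO and RNASE3 passed that limit through the U937 libraries alone, so a higher value in U937 was built into their passing. PRTN3 and RNASE2 reached it in 1 library outside U937, so their passing depended on U937 too. Below, "tested only through U937" is used for genes that reached 0.5 FPKM in no other library. Genes with 1 such library outside U937 are not counted among them.

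Azurophil granules are the first granules that form in developing neutrophils, at the promyelocyte stage, and promonocytes make a related set. They store serine proteases in active form together with antimicrobial proteins and myeloperoxidase, held by the negatively charged chains of the proteoglycan serglycin. The family is known as a marker of early myeloid cells and of myeloid leukemias.

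The study compared lines that bind epoxyeicosatrienoic acids (EETs, epoxides of arachidonic acid) with a line that does not. The binding lines were U937 (leukemic), EaHy (endothelial) and PC3M (prostate cancer, grown as PC3M-LN4), and the non-binding line was HEK293 (embryonic kidney). None was treated. U937 and EaHy grew in RPMI with heat inactivated FBS and antibiotics, PC3M in the same medium with L-glutamine, and HEK293 in DMEM, so HEK293 also differed in medium. Each line gave 2 libraries of total RNA depleted of ribosomal RNA, from cells collected in duplicate. Each group is thus a single established line in culture. For each gene, p-values rest on the spread between duplicate libraries, pooled over all lines, together with the variance prior of the fit. They do not rest on the 2 libraries of a line alone. The spread between duplicates may be technical.

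The libraries differed in ways that touch low values. Between 15215 and 22378 symbols were above 0, with the highest numbers in replicate 1 of U937 and of EaHy. RMRP, a small structural RNA, stood at 275616 to 506736 FPKM in EaHy replicate 2 and both PC3M libraries and at 12.3 to 1131 in the other 5. Read counts were not used here, and the depth in counts is unknown. Of 8 blood markers, 8 reached 0.5 FPKM in both U937 libraries, as did 7 of 8 endothelial markers in EaHy, 5 of 6 epithelial markers in PC3M and 5 of 5 markers of the embryonic kidney line in HEK293. EaHy also held 3 of the 6 epithelial markers in both libraries, which summed to 436 to 695 FPKM there and 129 to 461 in PC3M. HEK293 likewise held 3 of those 6, and U937 held 2 of the 8 endothelial markers. Of the 5 embryonic kidney markers, PC3M held 2 and EaHy 1. Their sum was 124 to 482 FPKM in PC3M and 453 to 513 in HEK293. None of 6 prostate markers reached 0.5 FPKM in both PC3M libraries, 2 of them being listed at 0 in both. No gene is described as absent, since ubiquitously used genes such as TUBB are also listed at 0 in this table.

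The serine proteases and their homologue were among the most abundant messages of U937. CTSG encodes cathepsin G, a granule protease of chymotrypsin-like fold. It held 1184 and 1277 FPKM in the U937 libraries, 3.29 and 0.940 in those of EaHy, 0.104 and 3.53 in those of PC3M, and 3.95 and 0 in those of HEK293. Both U937 libraries stood at least 299.9-fold above the highest of the other 6, and within U937 CTSG ranked 49th and 68th of all symbols. ELANE, neutrophil elastase, held 501 and 904 FPKM in the U937 libraries, 1.85 and 0 in those of EaHy, 0 and 0 in those of PC3M, and 2.87 and 0 in those of HEK293. The lower U937 library was 175-fold above HEK293 replicate 1, the highest of the others.

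PRTN3, proteinase 3, the usual target of the autoantibodies of granulomatosis with polyangiitis, held 136 and 372 FPKM in the U937 libraries, 0.349 and 0 in those of EaHy, 0 and 0 in those of PC3M, and 0.510 and 0.205 in those of HEK293. AZU1 encodes azurocidin, which has the protease fold but no protease activity and acts against bacteria. It held 177 and 144 FPKM in the U937 libraries, 0.927 and 0 in those of EaHy, 0 and 0.0473 in those of PC3M, and 1.10 and 0.154 in those of HEK293. For both genes the U937 libraries lay above every other library without overlap.

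**Figure D1:**
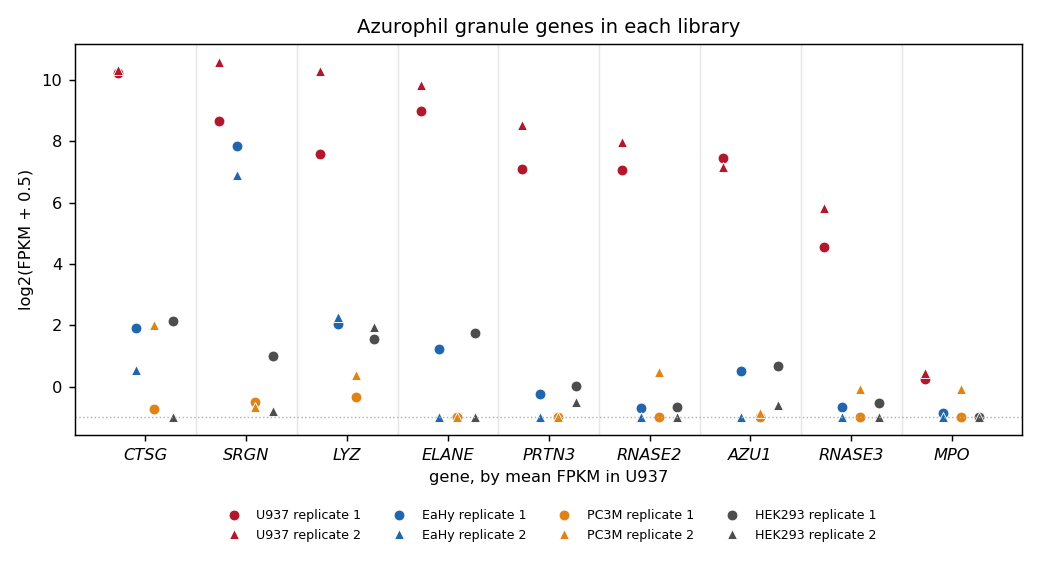
Each point is 1 library, with log2(FPKM + 0.5) on the y axis and the 9 genes on the x axis by their mean in U937. The dotted line marks a listed value of 0. The U937 points lie above all others for each gene, SRGN is also high in EaHy, and MPO is low in U937 too.

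In the limma fit over all tested genes these 4 were higher in U937 than in each other line. On the log2(FPKM + 0.5) scale CTSG differed by 9.69 ± 1.21 from HEK293, 9.04 ± 1.21 from EaHy and 9.62 ± 1.21 from PC3M (± SE, with n = 2 for every line, limma adjusted p = 0.0015, 0.002 and 0.002). ELANE differed by 9.02 ± 1.03 from HEK293 and 9.28 ± 1.03 from EaHy (limma adjusted p = 0.0011 and 0.00093). PRTN3 differed by 8.06 ± 0.63 and 8.44 ± 0.63 in the same order (limma adjusted p = 0.00046 and 0.00036). Both ELANE and PRTN3 were called against PC3M (limma adjusted p = 0.00077 and 0.00034), where both libraries were listed at 0 and no fold is given. AZU1 differed by 7.29 ± 0.69, 7.57 ± 0.69 and 8.26 ± 0.69 from HEK293, EaHy and PC3M (limma adjusted p = 0.00065, 0.00046 and 0.00043). The CTSG and ELANE differences from HEK293 were 8.11 and 7.64 without HEK293 replicate 2. Without its replicate 1 they were 11.26 and 10.4. Both genes were listed at 0 in the remaining HEK293 library there, so these sizes depend on the pseudocount.

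AZU1, PRTN3 and ELANE lie side by side on chromosome 19, and CTSG on chromosome 14 lies among the granzymes GZMH and GZMB and the mast cell chymase CMA1, by the gene order of RefSeq. Promoters of RefSeq (build GRCh38.p14) were found for 5 of the 9 genes, and the bases just before the annotated start of the 3 protease-type genes among them are shown because all 3 were called higher in U937 against each other line. Capitals mark GAGGAA, the letters of an ETS-family site that PU.1 can bind, on either strand (TTCCTC on the other strand), and TATAA on the gene's strand.
CTSG, chr14:24576251-24576340, minus strand: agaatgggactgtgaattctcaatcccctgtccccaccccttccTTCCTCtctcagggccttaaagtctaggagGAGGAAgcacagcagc
PRTN3, chr19:840889-840998, plus strand: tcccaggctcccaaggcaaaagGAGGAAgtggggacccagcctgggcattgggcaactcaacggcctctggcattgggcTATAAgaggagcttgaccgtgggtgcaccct
AZU1, chr19:827727-827836, plus strand: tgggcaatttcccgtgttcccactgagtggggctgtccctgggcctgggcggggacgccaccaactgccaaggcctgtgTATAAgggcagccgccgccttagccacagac

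The CTSG stretch holds GAGGAA in both orientations, at 46 to 41 and 16 to 11 bases before the start, and the PRTN3 stretch holds it once, at 88 to 83. GAGGAA occurred on either strand in the 250 bases before the start of 23.6% of all 35116 promoters in the table. In PRTN3 and in AZU1 TATAA lies at the same place, 31 to 27 bases before the start. TATAA on the gene's strand within 50 bases of the start, a motif searched after the sequences were seen, occurred in 4.74% of all promoters. The C/EBP letters TTGCNNA occurred in the 250 bases of all 5 promoters against 29% of the whole table, AACNGT (MYB) in those of RNASE2 and RNASE3 against 18.6%, and TGTGGT (RUNX) in none against 11%, all on both strands. These matches describe letters and not bound sites.

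Genes directly beside the proteases were lower in U937 than the proteases were. CMA1 was listed at 0.259 and 0.597 FPKM in U937, GZMH at 0.0969 and 0.136, and GZMB at 0.0953 and 0.144, beside CTSG at 1184 and 1277. CFD, complement factor D, which lies next to ELANE, held 21.3 and 23.6 FPKM in the U937 libraries and between 1.05 and 10.2 in the other 6. Its differences of 1.38 ± 0.85, 2.52 ± 0.85 and 2.59 ± 0.85 from HEK293, EaHy and PC3M missed the threshold (limma adjusted p = 0.44, 0.1 and 0.06). On the other side of the cluster, LPPR3, a membrane protein of the phospholipid phosphatase family, held 13.3 and 37.2 FPKM in the U937 libraries and 5.57 and 6.20 in those of HEK293. It was called against EaHy (4.94 ± 0.68, limma adjusted p = 0.0023) and PC3M (5.03 ± 0.68, 0.0028) and not against HEK293 (1.84 ± 0.68, 0.14). PTBP1, the gene beyond LPPR3, was not below the cluster genes throughout. It held 91.7 and 248 FPKM in the U937 libraries, where AZU1 held 177 and 144 and PRTN3 136 and 372. PTBP1 was called in none of the 3 comparisons. Around the cluster 10 genes were tested. Against HEK293, EaHy and PC3M, 0, 1 and 3 of them were higher in U937 and 1, 0 and 1 lower by limma. An unadjusted p under 0.05 in either direction was found for 2, 4 and 7. The shares of all tested genes were 4.47%, 5.95% and 17.2% higher and 10.6%, 6.77% and 4.57% lower. Medians of the 10 were −0.01, 0.54 and 2.61, against −0.22, 0.38 and 0.94 over all tested genes. Of 4 tested neighbours of CTSG, 0 were higher in each of the 3 comparisons and 1, 0 and 0 were lower. An unadjusted p under 0.05 was found for 2, 1 and 0 of these 4.

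**Figure D2:**
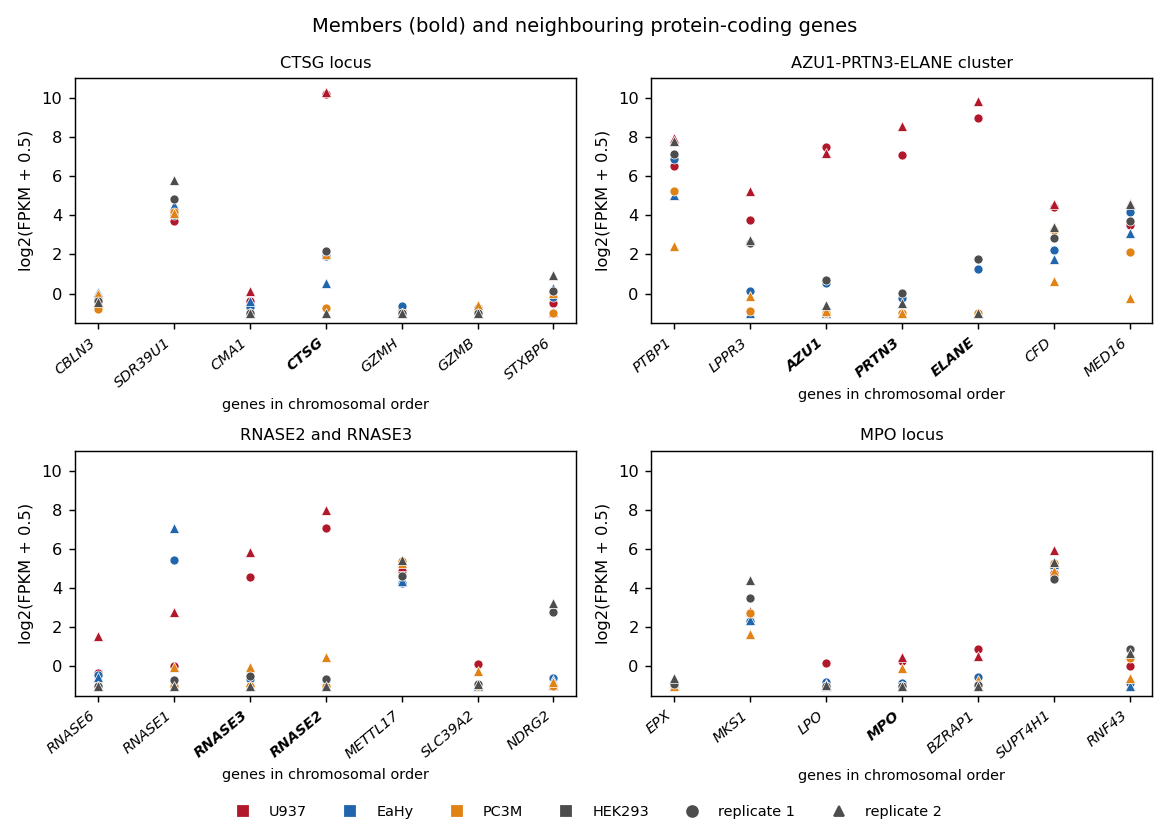
Panels give 4 loci, with genes in chromosomal order on the x axis, members in bold, and log2(FPKM + 0.5) on the y axis, 1 point per library. CTSG stands at 1184 and 1277 FPKM in U937 between CMA1 and GZMH, both under 1 FPKM, while MPO lies near the level of the genes beside it.

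MPO was the exception among the granule genes. Myeloperoxidase, the haem enzyme that makes hypochlorous acid from hydrogen peroxide and chloride, is usually the most abundant azurophil protein. Its gene held 0.696 and 0.866 FPKM in the U937 libraries, 0.0596 and 0 in those of EaHy, 0 and 0.449 in those of PC3M, and 0 and 0 in those of HEK293. The U937 libraries were the 2 highest, but the lower of them stood only 1.55-fold above PC3M replicate 2. Within U937, CTSG was 1701 and 1475 times as high per length as MPO, and ELANE was 720.1 and 1044 times as high. The difference from EaHy of 1.27 ± 0.38 and that from PC3M of 0.89 ± 0.38 missed the threshold (limma adjusted p = 0.065 and 0.12), with 95% intervals of 0.41 to 2.13 and 0.03 to 1.75. The PC3M difference lay under the median of all tested genes in that comparison, 0.94. Against HEK293, listed at 0 in both libraries, MPO was just called (limma adjusted p = 0.045), and the call held in 8 of 18 alternative fits.

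The related haem peroxidases were low as well. EPX, the eosinophil peroxidase, held 0.0507 and 0.0553 FPKM in the U937 libraries and LPO, lactoperoxidase, 0.605 and 0.0688. PXDN, a peroxidase of basement membranes, was the 1 tested gene of the 5 listed besides MPO, and it was lower in U937 (0.149 and 0 FPKM) than in the other lines (2.27 to 12.0). On the log2 scale it fell by 4.4 ± 0.72 against HEK293 (limma adjusted p = 0.0045), fell by 3.24 ± 0.72 against EaHy (0.021) and fell by 3.31 ± 0.72 against PC3M (0.018). LPO and EPX lie on one side of MPO on chromosome 17.

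SRGN was shared with the endothelial line. Serglycin, the core protein of the granule proteoglycan, is also known from endothelial cells. SRGN held 408 and 1544 FPKM in the U937 libraries, 232 and 119.8 in those of EaHy, 0.214 and 0.130 in those of PC3M, and 1.48 and 0.0805 in those of HEK293. The U937 libraries lay above the EaHy libraries, the lower by 1.76-fold, and both lines lay far above PC3M and HEK293. U937 exceeded HEK293 by 9.53 ± 0.89 and PC3M by 10.21 ± 0.89 (limma adjusted p = 0.00062 and 0.00046). It exceeded EaHy by 2.25 ± 0.89, which did not pass (limma adjusted p = 0.16, 95% interval 0.22 to 4.28). Leaving out replicate 2 of U937 gave 1.29 and leaving out its replicate 1 gave 3.21, neither of them called. EaHy in turn exceeded HEK293 by 7.28 ± 0.89 and PC3M by 7.96 ± 0.89 (limma adjusted p = 0.0016 and 0.0017). Without EaHy replicate 2, the library of that line with high RMRP, the EaHy difference from HEK293 remained called, as it did in all 19 alternative fits. In a fit of EaHy and PC3M alone the SRGN difference was again 7.96 (limma adjusted p = 0.065), and 0 of 16295 genes were called there in either direction.

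Enzymes that build the glycosaminoglycan chains of serglycin showed no such common pattern as a list, though XYLT1 among them shared it. Of 23 tested genes of chondroitin and heparan sulfate synthesis, 2 rose and 3 fell in U937 relative to HEK293, 0 and 2 against EaHy, and 4 and 0 against PC3M by limma, with 6, 4 and 9 at an unadjusted p under 0.05. Their median differences were −0.24, 0.41 and 0.57, against −0.22, 0.38 and 0.94 over all tested genes. The shares of all tested genes were 4.47%, 5.95% and 17.2% higher and 10.6%, 6.77% and 4.57% lower. CHSY1, a chondroitin synthase, held 30.3 and 42.1 FPKM in the U937 libraries, 7.66 and 7.21 in those of EaHy, 2.93 and 0.663 in those of PC3M, and 11.5 and 14.3 in those of HEK293. It was called against PC3M (4.18 ± 0.68, limma adjusted p = 0.0058) and not against EaHy or HEK293 (0.077 and 0.26). XYLT1, named after its values were seen, had the same calls as SRGN. U937 exceeded HEK293 by 3.64 ± 0.57 and PC3M by 3.78 ± 0.57 (limma adjusted p = 0.0036 and 0.0042). EaHy exceeded them by 2.72 ± 0.57 and 2.86 ± 0.57 (limma adjusted p = 0.015 and 0.02). The XYLT1 difference of U937 from EaHy, 0.91 ± 0.57, was not called (limma adjusted p = 0.38). EXT1, a heparan sulfate polymerase, chosen after its values were seen, held 0.456 and 0.226 FPKM in the U937 libraries, 46.2 and 25.5 in those of EaHy, and at least 12.3 in both of HEK293. It fell by 4.12 ± 0.78 against HEK293 and by 5.39 ± 0.78 against EaHy (limma adjusted p = 0.0086 and 0.0029), and its difference of −2.40 from PC3M missed the threshold (0.059).

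The ribonucleases RNASE2 and RNASE3 were high in U937 and near 0 elsewhere. RNASE2 encodes eosinophil-derived neurotoxin and RNASE3 eosinophil cationic protein, secretory ribonucleases known best from eosinophil granules. RNASE2 held 133 and 254 FPKM in the U937 libraries, 0.124 and 0 in those of EaHy, 0 and 0.881 in those of PC3M, and 0.127 and 0 in those of HEK293. RNASE3 held 22.9 and 56.5 FPKM in the U937 libraries, 0.131 and 0 in those of EaHy, 0 and 0.457 in those of PC3M, and 0.198 and 0 in those of HEK293. In both U937 libraries RNASE2 was above RNASE3, and in both genes replicate 2 was the higher. RNASE2 differed by 8.36 ± 0.64, 8.37 ± 0.64 and 7.79 ± 0.64 from HEK293, EaHy and PC3M (limma adjusted p = 0.00045, 0.00036 and 0.00043). RNASE3 differed by 5.95 ± 0.59, 6.02 ± 0.59 and 5.72 ± 0.59 (limma adjusted p = 0.00073, 0.00058 and 0.00083).

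These genes are close copies. Their longest GENCODE 29 transcripts matched over 723 bases at 88.5% identity, the closest such pair among the members. The file also lists ECRP, a transcribed pseudogene of the same family that lies between them, at 20.6 and 56.5 FPKM in U937, close to RNASE3 in both libraries. How shared reads were split among the 3 is not given in the sources used here, so the level of RNASE3 against RNASE2 is uncertain. The windows of 300 bases around their annotated starts aligned over 249 base pairs with 243 identical, besides 34 gap bases. The sequence before each start is shown because the likeness reaches the promoters, with capitals at TTGCNNA.
RNASE2, chr14:20955297-20955486, plus strand: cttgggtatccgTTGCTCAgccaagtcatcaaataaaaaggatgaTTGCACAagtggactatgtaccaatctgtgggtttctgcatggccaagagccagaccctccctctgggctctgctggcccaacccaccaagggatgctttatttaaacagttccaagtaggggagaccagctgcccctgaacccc
RNASE3, chr14:20891195-20891384, plus strand: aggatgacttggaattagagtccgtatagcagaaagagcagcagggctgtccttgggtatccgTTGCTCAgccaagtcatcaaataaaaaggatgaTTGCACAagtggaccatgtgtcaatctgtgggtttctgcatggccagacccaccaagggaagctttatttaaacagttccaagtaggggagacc

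Other genes of the ribonuclease A family had other patterns. RNASE1, the pancreatic-type enzyme that lies beside RNASE3, held 43.4 and 132.9 FPKM in the EaHy libraries, 0.521 and 6.32 in those of U937, and under 0.5 in the other 4. It was lower in U937 than in EaHy (fell by 4.86 ± 0.95, limma adjusted p = 0.011). RNASE4 held 1.09 and 0.581 FPKM in the U937 libraries and 4.19 to 8.37 in the other 6, and fell by 1.99 ± 0.55, 2.41 ± 0.55 and 2.70 ± 0.55 against HEK293, EaHy and PC3M (limma adjusted p = 0.045, 0.024 and 0.015). Of the 11 family members listed besides RNASE2 and RNASE3, 3 were tested. By limma none was called higher in U937, and 1, 2 and 2 were called lower against HEK293, EaHy and PC3M. Over all tested genes 4.47%, 5.95% and 17.2% were higher and 10.6%, 6.77% and 4.57% lower. In each comparison 2 of the 3 had an unadjusted p under 0.05 by limma. Against HEK293 RNASE1 was among them, and it was higher in U937 (2.26 ± 0.95).

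LYZ had the widest gap between the U937 libraries. Lysozyme cleaves bacterial cell walls, and its gene is on in the monocyte as well as the granulocyte line. LYZ held 189 and 1261 FPKM in the U937 libraries, 3.66 and 4.35 in those of EaHy, 0.285 and 0.802 in those of PC3M, and 2.46 and 3.37 in those of HEK293. EaHy and HEK293 thus each held a few FPKM of LYZ in both libraries, and PC3M less than 1. LYZ differed by 7.18 ± 0.89, 6.77 ± 0.89 and 8.92 ± 0.89 in U937 from HEK293, EaHy and PC3M (limma adjusted p = 0.0014, 0.0019 and 0.00077). Without U937 replicate 2 the differences were 5.81, 5.40 and 7.55, and each was still called. Between EaHy and PC3M its difference of 2.15 ± 0.89 did not pass (limma adjusted p = 0.2). An antisense gene, AC020656.1, matches 490 bases of the LYZ transcript on the other strand, and the counting is not stated to use strand, so its reads cannot be told apart from those of LYZ. LYG2, a goose-type lysozyme, held 1.79 and 0.653 FPKM in the U937 libraries and under 0.1 elsewhere, while 7 of 9 other lysozyme family genes fell under the limit for testing.

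MPO and RNASE3 are in the counts that follow although they were tested only through their U937 values. PRTN3 and RNASE2, with 1 library outside U937 at 0.5 FPKM, are also in them and also needed U937 to be tested. In count of calls, 9 of 9 granule genes were higher in U937 than in HEK293, where 4.47% of all tested genes were higher and 10.6% lower. Against EaHy 7 were higher, beside 5.95% of all genes higher and 6.77% lower, and against PC3M 8, beside 17.2% higher and 4.57% lower. In all 9 both U937 libraries lay above the 6 others, as did those of 11.6% of tested genes. The 3 comparisons share the U937 libraries, so their counts are not independent. EaHy exceeded HEK293 in 1 gene, SRGN, beside 4.55% of tested genes higher and 9.8% lower in EaHy, and exceeded PC3M in 1 gene, again SRGN, beside 6.28% higher and 1.44% lower. Between PC3M and HEK293, 0 of 9 were called by limma and 0 had an unadjusted p under 0.05, beside 2.39% of tested genes higher and 25.3% lower in PC3M. In libraries of whole cultures, fewer cells with a message and less of it per cell cannot be told apart.

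**Figure D3:**
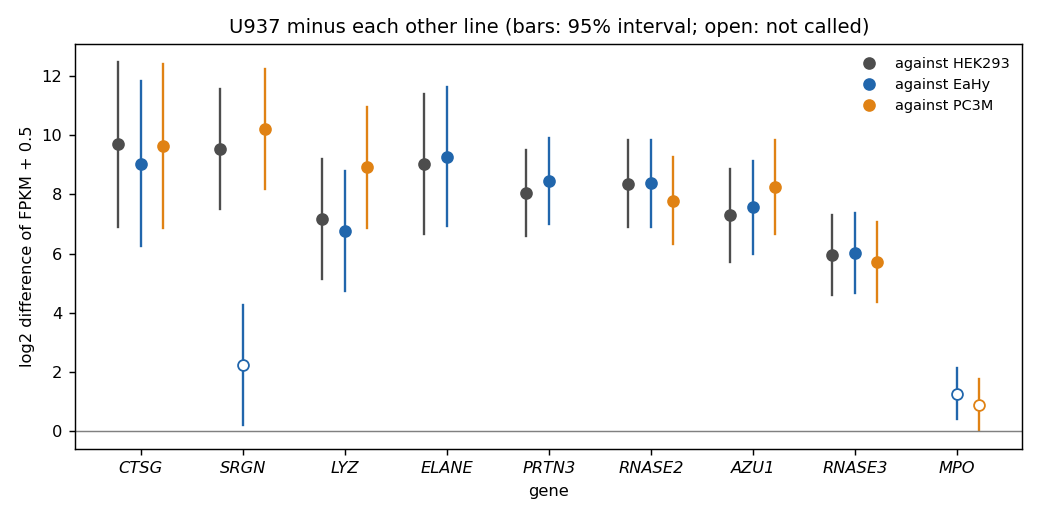
Points give the difference of U937 from each other line in log2(FPKM + 0.5) for the 9 genes, with 95% intervals from limma and open points where the call was missed. Pairs in which the other line is listed at 0 in both libraries are not drawn. SRGN against EaHy and MPO lie lowest.

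Within U937 the 9 genes spanned more than 3 orders of magnitude. By mean FPKM the order was CTSG (1231), SRGN (976), LYZ (725), ELANE (703), PRTN3 (254), RNASE2 (194), AZU1 (160.4), RNASE3 (39.7) and MPO (0.781). The ranges of the 2 libraries overlapped for each neighbouring pair from CTSG to ELANE and from PRTN3 to AZU1. The order of such neighbours thus does not exceed the spread. CTSG and ELANE, which are not neighbours in this order, did not overlap (1184 to 1277 against 501 to 904 FPKM). The ranges also did not overlap between ELANE and PRTN3, between AZU1 and RNASE3, or between RNASE3 and MPO.

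The U937 replicates did not differ by a common factor. Replicate 2 was higher than replicate 1 by a log2 difference of 2.73 for LYZ, 1.92 for SRGN, 1.45 for PRTN3, 1.28 for RNASE3, 0.92 for RNASE2 and 0.85 for ELANE. CTSG differed by 0.11, and AZU1 was lower in replicate 2 at −0.30. Over 6016 tested genes with a mean of at least 10 FPKM in U937 the median difference was 0.79, with the central 90% between −0.69 and 2.18. LYZ lay above 97.4% of these genes and AZU1 above 8.71%, so the ratio of CTSG to LYZ differed between the U937 libraries.

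**Figure D4:**
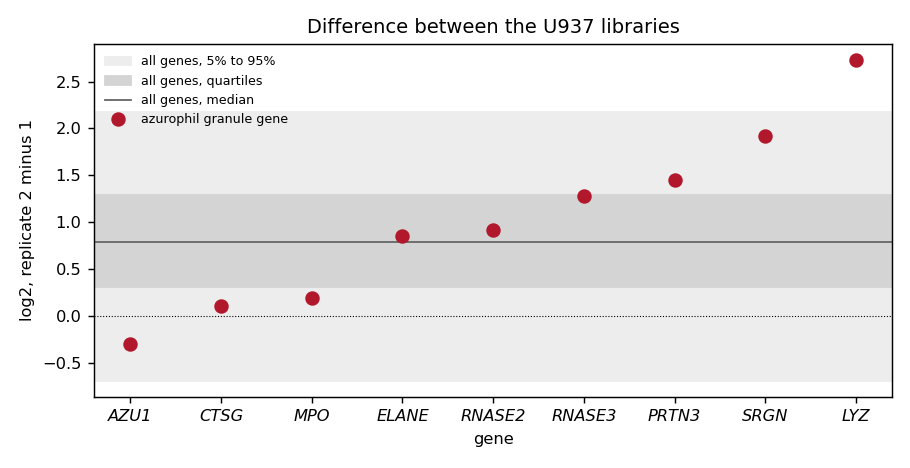
Points give the log2 difference of U937 replicate 2 minus replicate 1 for each gene, and grey bands the quartiles and the central 90% of 6016 genes with a mean of at least 10 FPKM. LYZ at 2.73 lies above the band and AZU1 at −0.30 below the quartiles.

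Most of the genes had their low values outside U937 in 1 of the 2 libraries of a line. In HEK293 CTSG, ELANE, SRGN, AZU1 and PRTN3 were all higher in replicate 1 than in replicate 2, at 3.95, 2.87, 1.48, 1.10 and 0.510 FPKM against 0, 0, 0.0805, 0.154 and 0.205, while LYZ was higher in replicate 2. As a share of the U937 mean, the replicate 1 values of these 5 were 0.321%, 0.408%, 0.152%, 0.685% and 0.200%. The summed level of the 8 blood markers moved the same way, at 3.41 FPKM in HEK293 replicate 1 and 0.685 in replicate 2, against 633 and 1205 in U937. In EaHy replicate 2, ELANE, PRTN3 and AZU1 were listed at 0 and CTSG at 0.940 FPKM, and the blood markers summed to 47.1 in replicate 1 and 17.2 in replicate 2, with LAPTM5 and CD33 the 2 that reached 0.5 FPKM in both libraries. PC3M replicate 2 held CTSG at 3.53 and RNASE2 at 0.881 FPKM but ELANE and PRTN3 at 0. Its blood markers summed to 0.416 FPKM, below the 2.19 of replicate 1, and 3 of the 8 were at 0 in both PC3M libraries. Whether reads carried over from U937 contribute to these low values, which enter the differences of CTSG and ELANE, was not tested.

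Nearness was taken as Euclidean distance of log2(FPKM + 0.5) over the 8 libraries, with the members left out as candidates. The genes nearest to most members were then genes known from blood cells. LCP1, the leukocyte actin bundler L-plastin, was nearest to PRTN3 (distance 0.82) and to ELANE (2.68), and CST7, the inhibitor cystatin F, was nearest to AZU1 (0.97). PLEK, pleckstrin, was nearest to RNASE2 (1.27) and ECRP to RNASE3 (0.35). CORO1A, a leukocyte actin regulator, was nearest to CTSG (4.95) and LYZ (2.99), and LAPTM5, a lysosomal membrane protein, to SRGN (4.75). Nearest to MPO was C17orf99 (0.76), and the third nearest was BZRAP1 (0.93), the gene next to MPO on its other side, at 1.35 and 0.920 FPKM in U937. Among the members AZU1 and PRTN3 were closest (1.75), and CTSG lay closer to ELANE (3.73) and LYZ (4.68) than to CORO1A.

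Other contents of the azurophil granule did not follow the 9 genes. Of 31 listed genes, mostly lysosomal hydrolases that all cells make, 25 were tested, and 2 rose and 1 fell in U937 relative to HEK293, 1 and 1 against EaHy, and 6 and 1 against PC3M. Their median differences were 0.60, −0.07 and 1.80, against −0.22, 0.38 and 0.94 over all tested genes. Among all tested genes 4.47%, 5.95% and 17.2% were higher and 10.6%, 6.77% and 4.57% lower. CD63, a membrane protein of azurophil granules and lysosomes, held 144 and 341 FPKM in the U937 libraries and 101 to 334 in the other 6. SGSH, a heparan sulfate sulfatase, was lower in U937 (0.120 and 0 FPKM against 1.47 to 11.1) and fell by 4.12 ± 0.71, 3.24 ± 0.71 and 2.51 ± 0.71 against HEK293, EaHy and PC3M (limma adjusted p = 0.0054, 0.019 and 0.04). The granule proteins BPI and the defensin DEFA4, were listed in U937 at 0.168 and 0 and at 0.00512 and 0 FPKM. PRSS57, a further granule serine protease, was listed there at 2.38 and 0.490. CD63, BPI, DEFA4 and PRSS57 were chosen after their values were seen.

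Genes that process, sort and release the granule proteins were higher in part. Of 26 tested, 4 were higher and 1 lower against HEK293, 5 and 0 against EaHy, and 9 and 0 against PC3M. Of all tested genes 4.47%, 5.95% and 17.2% were higher and 10.6%, 6.77% and 4.57% lower. Their median differences were 0.26, 0.85 and 2.15, against −0.22, 0.38 and 0.94 over all tested genes. UNC13D, which primes granules for release, held 12.0 and 21.97 FPKM in the U937 libraries and under 0.3 in the others, so it was tested only through U937, and its calls are part of these counts. RAB27A, its partner at the granule membrane, rose by 4.0 ± 0.63, 3.93 ± 0.63 and 6.08 ± 0.63 against HEK293, EaHy and PC3M (limma adjusted p = 0.0036, 0.0044 and 0.00084). LYST, the gene of Chediak-Higashi syndrome with its giant granules, rose by 2.58 ± 0.53, 3.02 ± 0.53 and 4.33 ± 0.53 (limma adjusted p = 0.012, 0.007 and 0.0018). CTSC, the dipeptidyl peptidase that activates the serine proteases, named after its values were seen, held 70.6 and 134.7 FPKM in the U937 libraries and 148 and 159.6 in those of EaHy, and passed in none of the 3 comparisons (limma adjusted p = 0.1, 0.7 and 0.19).

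Several inhibitors of the granule enzymes were higher in U937. Of 16 tested, 8 rose and 1 fell in U937 relative to HEK293, 5 and 0 against EaHy, and 6 and 2 against PC3M, where 4.47%, 5.95% and 17.2% of all tested genes were higher and 10.6%, 6.77% and 4.57% lower. The medians of the list were 1.71, 1.04 and 1.74, those of all tested genes −0.22, 0.38 and 0.94, and 1 of the 16 was tested only through U937. SERPINB1, which inhibits elastase, cathepsin G and proteinase 3, held 57.1 and 69.1 FPKM in the U937 libraries and 2.72 to 10.1 elsewhere, and rose by 3.00 ± 0.64, 4.05 ± 0.64 and 3.17 ± 0.64 against HEK293, EaHy and PC3M (limma adjusted p = 0.014, 0.0042 and 0.014). CST7, which restrains the activating protease CTSC, held 147 and 184 FPKM in the U937 libraries and under 0.7 in the other 6, and rose by 7.70 ± 0.56 and 7.57 ± 0.56 against HEK293 and EaHy (limma adjusted p = 0.00045 and 0.00036). CSTA, an inhibitor of cysteine proteases, rose by 5.86 ± 0.57 and 5.55 ± 0.57 (limma adjusted p = 0.00068 in both).

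Many transcription factors known from granule genes were higher in U937. Of 17 tested, 10 were higher and 2 lower against HEK293, 7 and 1 against EaHy, and 11 and 1 against PC3M, with median differences of 2.99, 2.13 and 3.61. Over all tested genes 4.47%, 5.95% and 17.2% were higher, 10.6%, 6.77% and 4.57% lower, and the medians −0.22, 0.38 and 0.94. GFI1, a repressor that in the mouse restrains granule protease genes as neutrophils mature, held 115 and 137 FPKM in the U937 libraries, 5.70 and 7.73 in those of HEK293, and under 0.4 in the other 4. It rose by 4.14 ± 0.55, 7.57 ± 0.55 and 7.93 ± 0.55 against HEK293, EaHy and PC3M (limma adjusted p = 0.0019, 0.00036 and 0.00034). MYB, a factor of immature blood cells, rose by 5.28 ± 0.69, 7.02 ± 0.69 and 5.26 ± 0.69 (limma adjusted p = 0.0018, 0.00059 and 0.0024), and SPI1, which encodes PU.1, by 6.67 ± 0.91, 6.08 ± 0.91 and 7.27 ± 0.91 (limma adjusted p = 0.0021, 0.0034 and 0.002). CEBPE, the factor of secondary granules, chosen after its values were seen, held 1.93 and 6.41 FPKM in the U937 libraries and under 0.3 in the other 6. It was called higher in all 3 comparisons (2.99, 2.85 and 2.73, limma adjusted p = 0.0062, 0.0087 and 0.012), and was the 1 gene of the list tested only through U937.

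Secondary (specific) and gelatinase granule genes, which neutrophils make after the azurophil set, were split. Of 27 listed genes 13 fell under the limit for testing, among them LTF (lactoferrin), CAMP (cathelicidin), MMP8 (collagenase) and OLFM4, all under 1 FPKM in U937. Of the 14 tested, 6 were higher and 1 lower against HEK293, 6 and 3 against EaHy, and 7 and 3 against PC3M, beside shares over all tested genes of 4.47% and 10.6%, 5.95% and 6.77%, and 17.2% and 4.57%. The list medians were 1.20, 1.40 and 1.78, against −0.22, 0.38 and 0.94 for all tested genes, and 3 of the 14, CYBB among them, were tested only through U937. ITGB2, the integrin beta chain of leukocytes, held 70.9 and 175 FPKM in the U937 libraries and rose by 7.55 ± 0.59, 7.11 ± 0.59 and 7.62 ± 0.59 against HEK293, EaHy and PC3M (limma adjusted p = 0.00046, 0.00037 and 0.00034). Outside U937 ITGB2 reached 0.5 FPKM only in EaHy replicate 1 (0.534), so its testing depended on U937 too. CYBB, the catalytic subunit of the phagocyte oxidase, held 2.63 and 26.7 FPKM in the U937 libraries and under 0.3 elsewhere. LCN2, the specific granule lipocalin, held 0.0192 and 0.0280 FPKM in the U937 libraries and 10.3 and 2.65 in those of PC3M. The genes named here for being low were chosen after their values were seen.

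**Figure D5:**
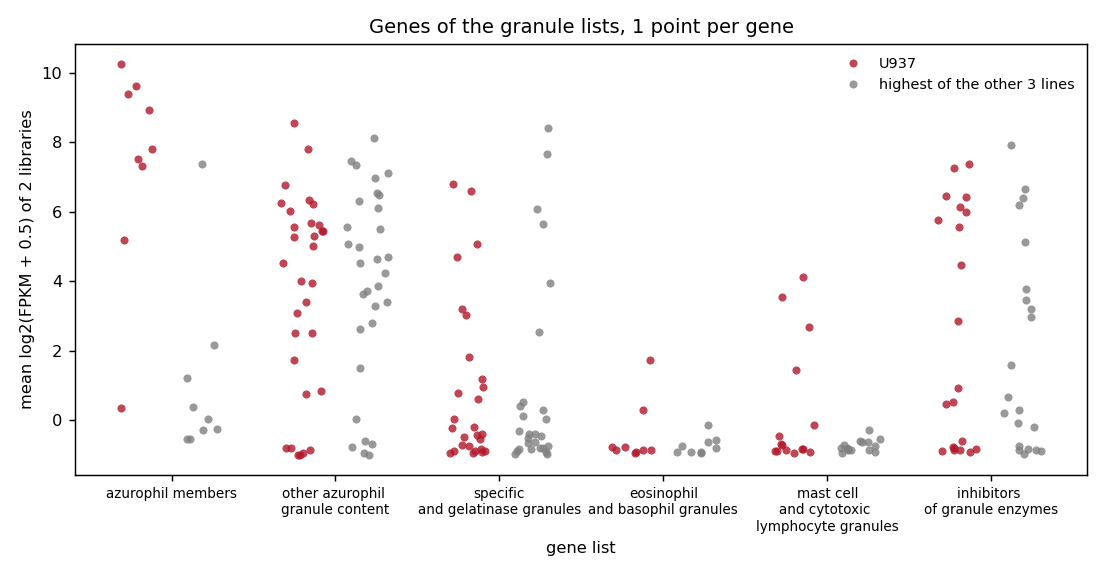
Each point is 1 gene of the lists on the x axis, with the mean log2(FPKM + 0.5) of the 2 U937 libraries in red and the highest such mean of the other 3 lines in grey. The 9 azurophil genes other than MPO and SRGN stand clear of the other lines, while the other azurophil contents overlap with them.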

How the data were processed

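RNA was sequenced as paired reads after depletion of ribosomal RNA in 8 libraries. Reads were trimmed with cutadapt, aligned with TopHat2 2.0.11 to hg19 and quantified with Cufflinks 2.2.1, per the submitters' processing notes. The authors deposited 1 FPKM value for each symbol and library, and the annotation, the handling of shared reads and the use of strand are not given in the sources used here.

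Values entered limma 3.58.1 (R 4.3.3) as log2(FPKM + 0.5), for genes that reached 0.5 FPKM in 2 or more libraries. A term per line was fitted to all 8 libraries with a variance prior that follows the level. The 6 pairwise comparisons were two-sided, with Benjamini-Hochberg adjustment over all tested genes and a threshold of 0.05. The fit was tested on simulated data. A gene listed at 0 enters at the pseudocount, so its fold depends on it, list medians included. Members and lists were chosen with earlier results of these data known. Beyond the members, the names rule took per list up to 4 genes called against all 3 lines, or else the 2 highest in U937, besides any gene of the neighbour, ribonuclease, peroxidase and lysozyme lists and the 3 nearest genes of each member. Promoters came from RefSeq (GRCh38.p14), transcripts from GENCODE 29 with blastn 2.17.0 and alignments from Biopython 1.88. Positions of the deposited genes are not printed, since no hg19 genome was used. The amino acid sequences of the members were not analysed here. Alternatives were other pseudocounts, filters and scalings, another variance prior, a replicate block, fits of 2 lines, and fits without single or RMRP-rich libraries.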

Additional observations from a re-analysis of the deposited data

How the results depend on the processing

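The higher level of CTSG, ELANE, PRTN3, AZU1, RNASE2, RNASE3 and LYZ in U937 kept its direction and its call against all 3 lines under each alternative run, and that of SRGN against HEK293 and PC3M. Leaving out 1 library, 8 to 9 genes were called against HEK293, 7 to 8 against EaHy and 8 against PC3M, the changes being MPO, and 1, 0 and 1 were called between EaHy and HEK293, PC3M and HEK293, and EaHy and PC3M. The last count was 0 by limma when the fit held EaHy and PC3M alone, a fit with fewer libraries in which 0 of all 16295 genes were called. SRGN against EaHy ranged from 1.29 to 3.21 without single libraries. Under quantile normalization SRGN was called against EaHy (2.50, limma adjusted p = 0.0402). In the same setting MPO against PC3M turned to −0.01, and between PC3M and HEK293 SRGN turned to 0.42 and LYZ to 0.14, none of them called. SRGN between PC3M and HEK293 ranged from −1.56 to 0.21 without single libraries. The cause of these turns was not tested. The median difference of all tested genes between U937 and PC3M was 0.94 as deposited, 0.15 with upper-quartile scaling and 0.06 with quantile normalization. For 7 members other than SRGN and LYZ, the 21 differences among EaHy, PC3M and HEK293 were not called in any of 382 refits, and 35 refits had the other sign. MPO fell under a filter of 2 FPKM. Differences between replicates correlated at −0.15 to 0.33 across lines, so the numbers were not taken as pairs. With a replicate block 8, 7 and 8 members were called against HEK293, EaHy and PC3M, and MPO against HEK293 had a limma adjusted p of 0.051. Both PC3M libraries were rich in RMRP, so no PC3M comparison could be made without such libraries.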

Other observations

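Granule genes of other blood cells were mixed in U937. TPSAB1 and TPSB2, the mast cell tryptases, were listed at 3.83 and 70.5 and at 2.47 and 44.7 FPKM in the U937 libraries and under 0.2 in the other 6, and since the genes are near-identical copies, the level of each is uncertain. The gap between the U937 libraries was wider for TPSAB1 than for LYZ. CPA3, the mast cell carboxypeptidase, was listed at 0.0877 and 0 FPKM and the chymase CMA1 under 1, both chosen after their values were seen. Of 15 listed mast cell and cytotoxic granule genes 3 were tested, TPSAB1, TPSB2 and NKG7, all through their U937 values alone, so their higher level there was built into the testing.

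PRG2, the eosinophil major basic protein gene, held 2.92 and 2.76 FPKM in the U937 libraries and under 0.3 in the other 6, and was tested only through U937. EPX, CLC and PRG3, other eosinophil granule genes, were under 0.1 FPKM in both U937 libraries, chosen after their values were seen. RNASE2 and RNASE3, the best known eosinophil ribonucleases, thus stood at 22.9 to 254 FPKM beside low values of the other eosinophil granule genes. Of 9 listed eosinophil and basophil genes 2 were tested, and the 1 that was higher in each comparison was PRG2. Of 15 tested surface markers of monocytes and granulocytes 12 rose and 0 fell against HEK293, 12 and 1 against EaHy, and 14 and 0 against PC3M. Of all tested genes 4.47%, 5.95% and 17.2% were higher and 10.6%, 6.77% and 4.57% lower. Of the 15 markers, 5 were tested only through U937. CD4, PTPRC, FCER1G and CSF3R were called in all 3, with FCER1G among those tested only through U937. Outside U937, CD4 reached 0.5 FPKM only in HEK293 replicate 1 (0.585) and PTPRC only in EaHy replicate 1 (0.818). The testing of both thus depended on U937 too. CD14, the monocyte co-receptor for endotoxin, was listed at 0.114 and 0.171 FPKM in U937.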
